A study of Mus musculus with 30 samples.

Results

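The subject is the kynurenine pathway of tryptophan breakdown, represented by 6 genes: Kynu, Kmo, Haao, Acmsd, Qprt and Afmid. Every probe annotated to one of these symbols was read on each array, which gave 11 of the 25697 probes. Kynu, Kmo, Haao and Qprt had 1 probe each and Afmid had 7, while no probe carried the symbol Acmsd, so 5 of the 6 genes were measured. The gene set was chosen by its leading member: Kynu was selected on its high level in old and in rapamycin-treated kidney, so values and differences in those comparisons are a description, with no p, and counts of probes past a threshold there support nothing.

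The RNA came from kidney, brain and heart of 10 wildtype male C57BL/6JRj mice, hybridised to 30 Illumina BeadChip arrays. Each tissue had 4 young controls aged 25 weeks, 2 old controls aged 25 months and 4 rapamycin-treated mice aged 25 months. Treatment with rapamycin, an inhibitor of the kinase mTOR, began at 13 months of age and had lasted over 12 months. Mice had been randomised to drug or vehicle and stayed on that diet. Sample titles mark the 25-month controls with a letter y, so the stated ages were used for grouping. Every mouse had the same strain, sex and genotype, and every tissue was taken as bulk RNA, in which fewer cells of a type and less RNA per cell cannot be told apart. Only 2 old controls were measured, and whatever else set the young and old mice apart cannot be told apart from age.

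The pathway carries most dietary tryptophan that is not built into protein. Dioxygenases encoded by Tdo2, Ido1 and Ido2 open the indole ring, Afmid (arylformamidase) releases kynurenine, Kmo (kynurenine monooxygenase) hydroxylates it, and Kynu (kynureninase) cleaves the product to 3-hydroxyanthranilate. Haao opens that ring. Acmsd then diverts its product towards complete oxidation, and without that step quinolinate forms, which Qprt turns into a precursor of NAD. In mammals liver and kidney hold many of these enzymes, and macrophages use the pathway under interferon stimulation.

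RefSeq promoter windows of GRCm38.p6, from 250 bases before to 50 after the annotated start, were found for 5 of the 6 genes, and Kynu was not among them. The windows of Afmid and Haao are shown because the probes of both genes were lower in old kidney, and that of Qprt because its level overlapped between the groups. Capitals mark the 1 motif match found in the windows of Haao and of Qprt, and the Afmid window has none. The window of Afmid lies at chr11:117825669-117825968 on the plus strand, that of Haao at chr17:83846741-83847040 on the minus strand and that of Qprt at chr7:127121980-127122279 on the minus strand.
Afmid: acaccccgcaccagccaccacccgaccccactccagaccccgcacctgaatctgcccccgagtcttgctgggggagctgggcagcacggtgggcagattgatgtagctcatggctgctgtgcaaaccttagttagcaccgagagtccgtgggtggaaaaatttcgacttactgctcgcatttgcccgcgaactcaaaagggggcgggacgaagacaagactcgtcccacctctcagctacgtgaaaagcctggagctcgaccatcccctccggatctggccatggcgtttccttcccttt
Haao: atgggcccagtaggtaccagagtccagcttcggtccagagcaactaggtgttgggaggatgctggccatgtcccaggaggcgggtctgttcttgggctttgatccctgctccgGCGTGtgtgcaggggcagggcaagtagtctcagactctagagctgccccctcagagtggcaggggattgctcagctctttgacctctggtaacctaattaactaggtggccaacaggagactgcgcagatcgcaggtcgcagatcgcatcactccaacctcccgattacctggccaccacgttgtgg
Qprt: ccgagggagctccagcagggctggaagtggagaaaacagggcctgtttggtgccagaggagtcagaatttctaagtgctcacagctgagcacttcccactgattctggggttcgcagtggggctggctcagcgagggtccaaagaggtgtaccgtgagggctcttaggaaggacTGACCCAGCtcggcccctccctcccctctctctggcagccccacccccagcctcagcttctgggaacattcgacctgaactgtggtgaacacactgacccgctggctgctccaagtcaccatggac

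Both strands were searched for 5 motifs. The aryl hydrocarbon receptor core GCGTG, bound by a receptor that kynurenine can activate, occurred once in the Haao window, on the printed strand at base 114. The Acmsd window, which is not printed, also held 1 match, at base 256 on the minus strand. This core stood in 32.4% of the 32851 promoter windows in the table. The antioxidant response core TGACNNNGC was found in the Qprt window at base 175 and in 12.4% of all windows. Neither the C/EBP palindrome TTGCNNAA (10.8% of all windows), the TATA box TATAAA (13.6%) nor the interferon-stimulated element (3.44%) matched in any of the 5 windows. The Kmo and Afmid windows held none of the 5 motifs. These matches are letters in a window and were not set against binding data.

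One kidney array stood apart from the rest. The array of rapamycin mouse 2 detected 9989 probes, against 11962 to 12777 on the other 9 kidney arrays, where a probe counts as detected if its detection p, deposited for each probe and array, is under 0.05. Across probes it correlated with the other 9 at a median of 0.8049, where each of those had 0.9735 to 0.9868. Brain arrays detected 12975 to 13562 probes and heart arrays 11923 to 12686. Results within kidney are therefore given with all 10 arrays and with the 9 left without that array. Comparisons between tissues keep it. Marker genes were highest in the labelled tissue. Summed levels of proximal tubule markers, added up on the linear scale, were 41140 to 56390 in kidney, over 10 measured genes, and 315 to 374.9 in brain, over 6. In heart they were 1995 to 3440, over 4. The 5 measured neuron markers summed to 13980 to 17160 in brain and the 5 measured cardiomyocyte markers to 80640 to 87480 in heart.

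Kynu, probe ILMN_1214750, was near background in young kidney and well above it in old kidney. Its log2 normalised level in the 4 young controls was 4.80, 4.58, 4.85 and 5.17, and only the last of these arrays detected it. The 2 old controls had 8.70 and 7.85. The 4 rapamycin arrays had 7.24, 7.86, 8.57 and 6.55. All 6 arrays of 25-month mice lay above all 4 young arrays, and the old and rapamycin groups overlapped. In the deposited signal, before background correction, young arrays read 114.4 to 125.6, old controls 594.2 and 338.2, and rapamycin arrays 266.4, 165.7, 522.4 and 216.4. The same separation held there, although the array of rapamycin mouse 2 was the lowest of its group in deposited signal and the second highest after normalisation.

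The kidney difference of Kynu between old and young controls was 3.42 ± 0.48 on the log2 scale (SE; n = 2 and 4), which is 10.7-fold. Without the array of rapamycin mouse 2 it was 3.48 ± 0.43. Rapamycin-treated kidney stood 2.71 ± 0.39 above young kidney with 10 arrays and 2.66 ± 0.38 with 9. Between rapamycin and old controls the difference was -0.72 ± 0.48 with 10 arrays, with a 95% interval from -1.78 to 0.35, and -0.82 ± 0.46 with 9. That comparison shares its old control arrays with the one on which Kynu was selected, so no p is given for it either. Because young levels sit at background, the size depends on background correction: without it the old-minus-young difference was 1.73 and the rapamycin-minus-young difference 1.25.

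**Figure D1:**
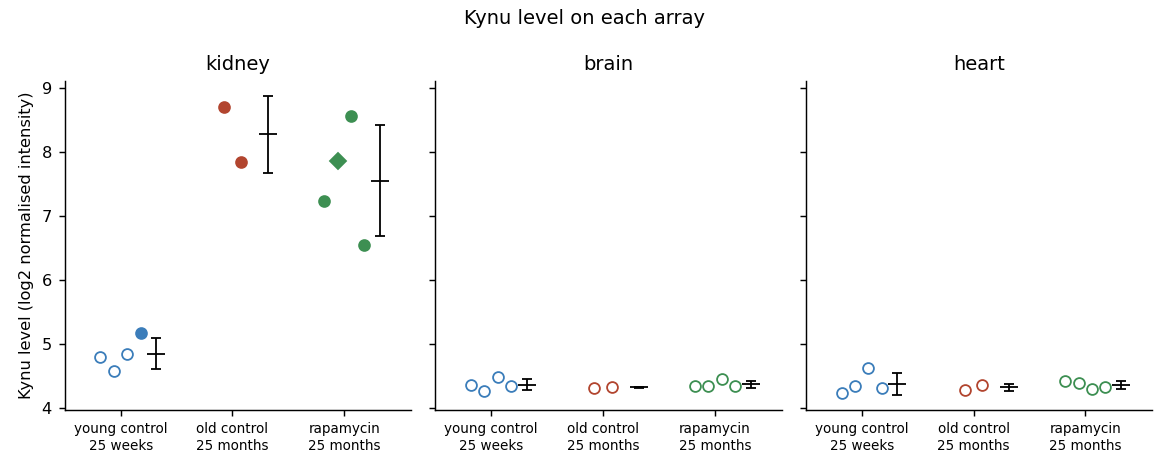
Kynu level on each array (log2 normalised intensity, y axis) in the 3 groups of kidney, brain and heart. Filled points are arrays that detected the probe, open points did not, the diamond is the kidney array of rapamycin mouse 2, and black bars give mean ± SD. Kidney arrays of 25-month mice lie at 6.55 to 8.70, above the young arrays at 4.58 to 5.17, and no brain or heart array detected the probe.

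In brain and heart Kynu was not detected on any of the 20 arrays. Its log2 levels there ran from 4.23 to 4.62, and the group medians were 4.36, 4.32 and 4.35 in brain and 4.33, 4.32 and 4.36 in heart for young, old and rapamycin mice. The arrays give only an upper bound for Kynu in these tissues, so no difference between groups or between these tissues is given.

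Afmid, which releases kynurenine from its formyl precursor, ran the other way from Kynu in old kidney on all 7 of its probes. Probe ILMN_2827607, the one with the highest signal, read 8.74, 8.27, 8.44 and 8.76 in young controls, 8.03 and 7.96 in old controls, and 8.35, 6.21, 8.41 and 8.71 in rapamycin-treated mice. Probe ILMN_2626209 read 7.10, 6.84, 7.13 and 6.92 in young controls, 6.03 and 5.95 in old controls, and 6.95, 4.26, 6.44 and 6.41 in rapamycin-treated mice. On both probes the old arrays lay below all young arrays, and rapamycin array 2 lay below every other kidney array. Over the 7 probes the old-minus-young difference ran from -1.0 to -0.56 with 10 arrays and from -1.02 to -0.55 with 9. Old arrays were below all young arrays on every Afmid probe, with gaps of 0.24 to 0.81, as they were for 19.5% of all 13805 probes tested in kidney. The group separation with old higher, which Kynu showed, held for 17.7% of those probes.

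Rapamycin-treated kidney had mean Afmid levels between those of old and young controls once array 2 was left out. With 9 arrays the rapamycin-minus-old difference was positive on all 7 probes, from 0.30 to 0.73. The largest, 0.73 ± 0.15 for ILMN_2702893 (SE; n = 3 and 2), had a limma adjusted p of 0.171, the smallest among the Afmid probes, so none passed the threshold of 0.05. The 3 rapamycin arrays lay above both old controls on 6 of the 7 probes, and the exception was ILMN_2702894. The same held for 12.9% of all probes tested with 9 arrays. With 10 arrays the difference ran from -0.09 to 0.35, with limma adjusted p from 0.825 to 0.994, and the groups overlapped on every Afmid probe. Against young controls, Afmid in rapamycin-treated kidney differed by -0.98 to -0.46 with 10 arrays and -0.42 to -0.06 with 9.

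The 7 Afmid probes share a target gene and are not independent. Over the 10 kidney arrays the 21 pairs of probes had Pearson correlations of 0.867 to 0.982, and over 9 arrays 0.655 to 0.976. Their mean log2 level per array was 6.91 to 7.30 in young controls, 6.37 and 6.30 in old controls, and 6.97, 5.09, 6.66 and 6.84 in rapamycin-treated mice. On array 2 of that group 5 of the 7 probes were not detected.

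**Figure D2:**
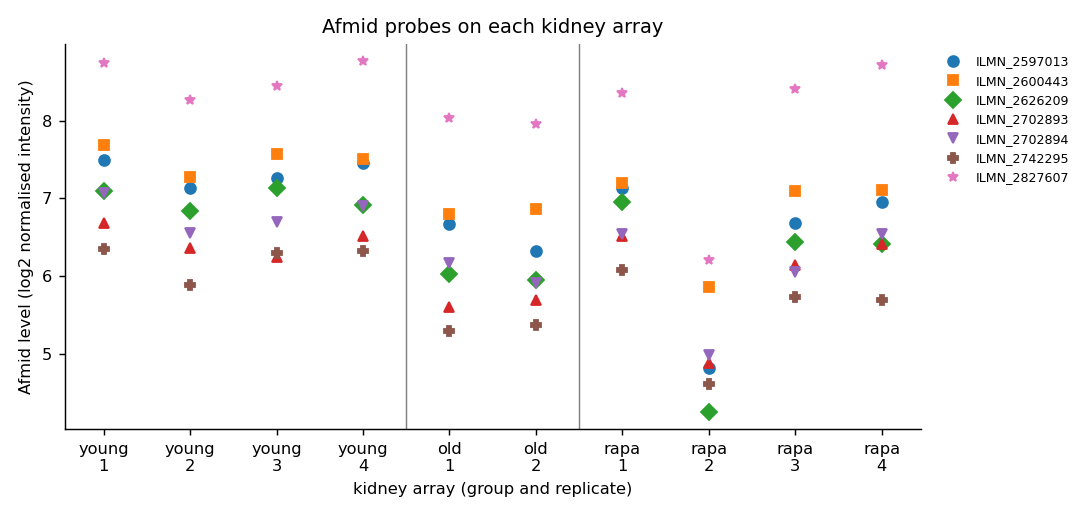
Level of each of the 7 Afmid probes (log2 normalised intensity, y axis) on the 10 kidney arrays (x axis), with grey lines between young controls, old controls and rapamycin-treated mice. All 7 probes are lower on the 2 old arrays than on the 4 young arrays, and lowest on the array of rapamycin mouse 2.

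Haao, the dioxygenase that opens the ring of the kynureninase product, was also lower in old kidney. Probe ILMN_2607951 read 11, 11.09, 10.99 and 11.28 in young controls, 10.58 and 10.66 in old controls, and 10.84, 11.42, 10.88 and 11.21 in rapamycin-treated mice. Both old arrays lay below the 8 other arrays after normalisation. In the deposited signal rapamycin array 2 read 1617, below the old controls at 1840 and 1752. The old-minus-young difference was -0.47 ± 0.20 with 10 arrays and -0.48 ± 0.13 with 9. Rapamycin-treated kidney stood 0.47 ± 0.20 above old kidney (SE; n = 4 and 2; limma adjusted p = 0.825), and 0.36 ± 0.14 with 9 arrays (limma adjusted p = 0.361), so the difference did not pass the test. Rapamycin arrays lay above old arrays with no overlap for 5.98% of all probes with 10 arrays. Against young kidney the rapamycin difference was 0.00 ± 0.16, and -0.12 ± 0.12 with 9 arrays.

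Kmo, which acts one step before kynureninase, had similar levels in old and young kidney. Probe ILMN_1224155 read 6.68, 6.67, 6.86 and 6.85 in young controls, 6.57 and 6.84 in old controls, and 6.83, 8.02, 6.99 and 6.92 in rapamycin-treated mice. Old and young arrays overlapped, and rapamycin array 2 stood above every other kidney array after normalisation. In the deposited signal that array read 177.3, the lowest of the kidney arrays. The old-minus-young difference was -0.06 ± 0.31, with a 95% interval from -0.74 to 0.63, and with 9 arrays the interval narrowed to -0.31 to 0.20. Rapamycin minus old was 0.48 ± 0.31 with 10 arrays (limma adjusted p = 0.825) and 0.20 ± 0.12 with 9 (limma adjusted p = 0.54).

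Qprt, the last enzyme before the NAD precursor, overlapped between all 3 groups. Probe ILMN_2591754 read 8.73, 8.47, 8.63 and 8.63 in young controls, 8.17 and 8.56 in old controls, and 8.52, 8.18, 8.56 and 8.56 in rapamycin-treated mice. One old array and rapamycin array 2 were the lowest. The old-minus-young difference was -0.25 ± 0.18 with 10 arrays and -0.25 ± 0.12 with 9. Rapamycin minus old was 0.09 ± 0.18 (limma adjusted p = 0.874), and 0.18 ± 0.13 with 9 arrays (limma adjusted p = 0.608).

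**Figure D3:**
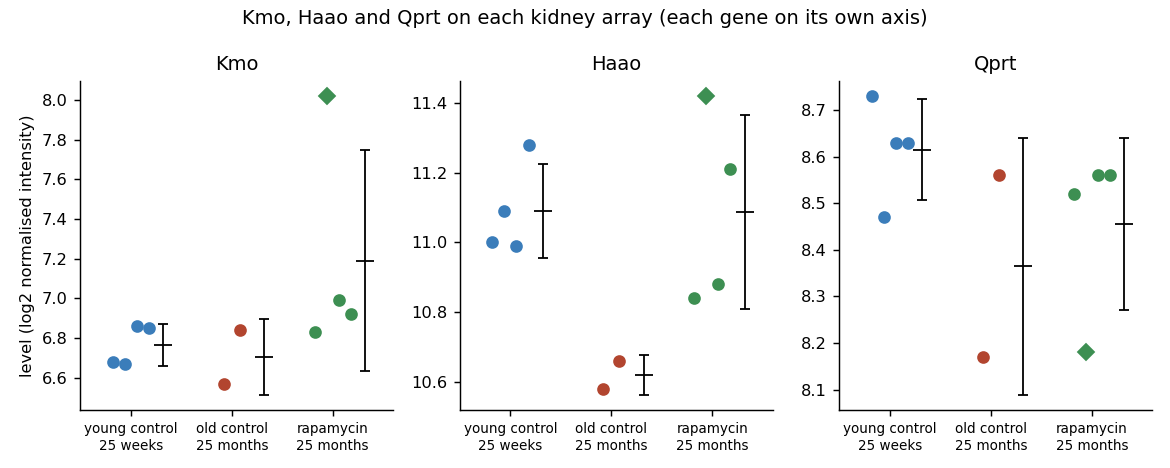
Kmo, Haao and Qprt levels (log2 normalised intensity, y axis, a separate scale for each gene) on each kidney array, by group. Diamonds are the array of rapamycin mouse 2 and black bars give mean ± SD. The 2 old arrays of Haao, at 10.58 and 10.66, lie below the other 8, while Kmo and Qprt overlap between old and young.

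Counted over the pathway in kidney, 1 of the 11 probes, that of Kynu, was called at an adjusted p under 0.05 between old and young controls with 10 arrays, where 0.0942% of all probes were called. With 9 arrays 9 were called, 1 higher and 8 lower, the latter being the 7 Afmid probes and Haao. The share over all probes was then 9.63%. Between rapamycin and young controls 1 probe, again Kynu, was called with 10 arrays and with 9, against 0.369% and 8.47% of all probes. These counts come from the comparisons on which Kynu was selected and are a description only. In both, the 10-array count of 1 became 0 without young control 1, 2, 3 or 4. In old minus young it was also 0 without old control 1 or 2 or rapamycin mouse 1 or 4, and in both it was 0 with median scaling. Between rapamycin and old controls 0 of the 11 were called with 10 or with 9 arrays, and limma called 0% of all probes in both. At an unadjusted p under 0.05, limma counted 1 of the 10 probes other than Kynu with 10 arrays, that of Haao, and 7 of the 10 with 9 arrays, those of Haao and 6 of Afmid. Over all probes these counts were 418 of 13805 and 1608 of 13651.

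**Figure D4:**
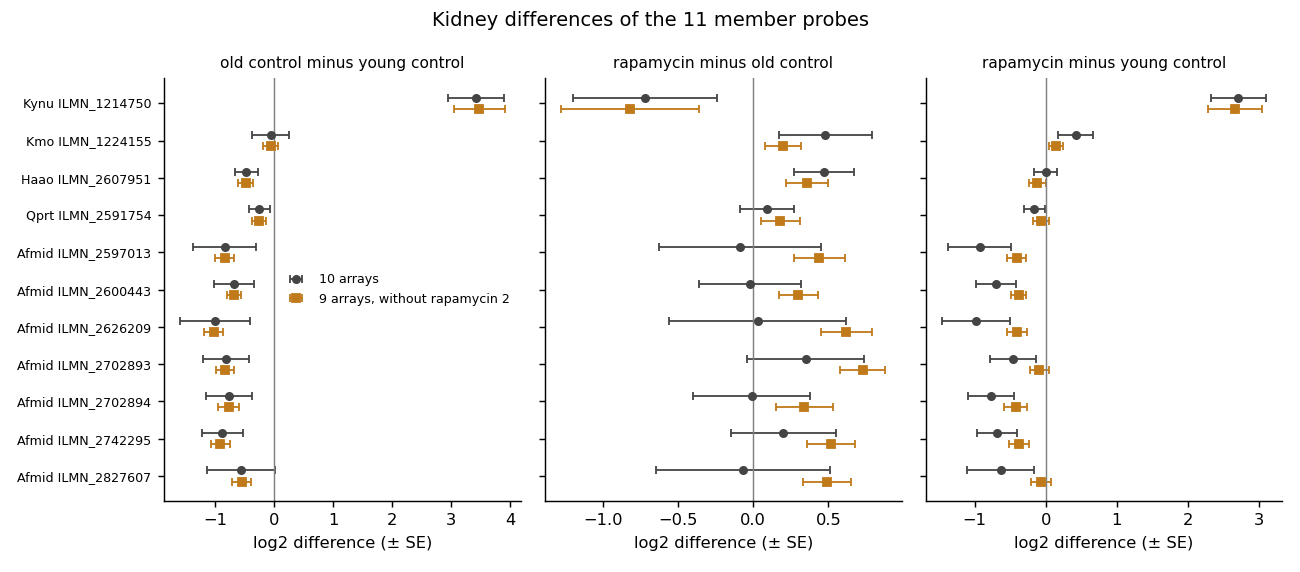
Kidney log2 differences (x axis, ± SE) of the 11 probes for 3 comparisons, with 10 arrays (circles) and without the array of rapamycin mouse 2 (squares). Kynu lies far to the right of 0 in both comparisons with young controls, all 7 Afmid probes lie to the left of 0 in old minus young, and in rapamycin minus old the Afmid probes are all above 0 with 9 arrays only.

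Kmo, Haao, Qprt and Afmid had higher signals in kidney than in brain or heart of young mice. In a fit of all 30 arrays, the 10 probes other than Kynu were called higher in young kidney than in young brain and than in young heart. Over all probes 61.9% and 51.7% were called in either direction. Kmo, Haao and 4 of the Afmid probes passed the detection filter only through kidney, which fixed their direction, so the count is no support. For that reason no p is given for Haao or Kmo. Haao was at least 75.1-fold higher than in brain and at least 66.3-fold higher than in heart. The folds are bounds because no brain or heart array of young mice detected Haao, so the faintest detected signal stands in for its level. Kmo was at least 4.18-fold higher than in brain and at least 3.69-fold higher than in heart. Qprt was at least 12.6-fold higher than in heart (limma adjusted p = 6.22e-22), and no fold is given against brain, where 1 of 4 young arrays detected it.

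For Kynu no fold between tissues is given, since 1 of the 4 young kidney arrays and no young brain or heart array detected it. For Afmid ILMN_2827607, detected on every young array of every tissue, kidney was 12.0-fold higher than brain and 5.83-fold higher than heart (limma adjusted p = 3.26e-11 and 3.65e-08). Heart exceeded brain for 2 Afmid probes, with brain-minus-heart differences of -1.05 for ILMN_2827607 and -0.85 for ILMN_2600443 (limma adjusted p = 0.00311 and 0.000448). No young brain array detected the latter probe, so its brain level is only a bound. In that comparison 61.4% of all probes were called.

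In brain 2 of the 11 probes passed the detection filter of 2 arrays per tissue, and in heart 3 did. Brain Qprt was detected on 1 of 4 young, 0 of 2 old and 1 of 4 rapamycin arrays and lay at 4.47 to 5.04, near background, so its differences are not read. Brain Afmid ILMN_2827607 read 5.08, 5.14, 5.06 and 5.34 in young controls, 5.12 and 5.16 in old controls, and 4.92, 5.12, 5.33 and 5.42 in rapamycin-treated mice. Its groups overlapped, with an old-minus-young difference of -0.01 ± 0.13 and a 95% interval from -0.30 to 0.27 (limma adjusted p = 0.979). Of all brain probes 0.85%, 0.0276% and 1.09% were called in the 3 comparisons, in the same order. Of the 2 pathway probes limma called 0, and 0 at an unadjusted p under 0.05, where 1827, 1422 and 1853 of all 14473 probes stood.

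Heart Afmid ILMN_2827607 was detected on all 10 heart arrays. It read 5.69, 5.74, 5.76 and 5.92 in young controls, 5.64 and 5.34 in old controls, and 5.86, 5.84, 6.07 and 5.79 in rapamycin-treated mice, and both old arrays were the lowest. Old arrays lay below all young arrays for 13.5% of heart probes, and rapamycin arrays above both old arrays for 10.3%. The old-minus-young difference was -0.28 ± 0.13 (SE; n = 2 and 4; limma adjusted p = 0.395) and rapamycin minus old 0.40 ± 0.13 (limma adjusted p = 0.332), neither past the test. Of the other 2 heart probes, ILMN_2600443 differed by 0.02 to 0.03 in the 3 comparisons. Probe ILMN_2702893 was detected on 0 of 4 young, 1 of 2 old and 1 of 4 rapamycin arrays. It lay at 4.60 to 4.85, near background, so its differences are not read. In heart 0.624%, 0% and 0.944% of all probes were called in old minus young, rapamycin minus old and rapamycin minus young, and 0 of the 3 pathway probes. At an unadjusted p under 0.05 limma counted 1, 1 and 0 of the 3, and 1724, 1598 and 2462 of all 13773 probes.

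Whether a group difference itself varied between tissues was tested in the 30-array fit and is read only for probes that passed the detection filter in both tissues. For kidney against brain, rapamycin minus old differed by -0.12 ± 0.51 for Afmid ILMN_2827607 (limma adjusted p = 0.94), and 0% of all probes were called. Qprt, near background in brain, differed by -0.04 ± 0.18 (limma adjusted p = 0.943). For kidney against heart, the 3 Afmid probes ILMN_2600443, ILMN_2702893 and ILMN_2827607 differed by -0.04 ± 0.34, 0.30 ± 0.37 and -0.49 ± 0.51 (limma adjusted p = 0.967, 0.705 and 0.657), and 0.00586% of all probes were called. Of these, ILMN_2702893 lay near background in heart. Brain against heart could be read for ILMN_2827607 alone. Its differences were -0.37 ± 0.51 for rapamycin minus old, 0.29 ± 0.51 for old minus young and -0.08 ± 0.42 for rapamycin minus young (limma adjusted p = 1, 1 and 0.999), with 0%, 0.129% and 0.17% of all probes called. None of these passed the test, and at an unadjusted p under 0.05 limma counted 0 of them. The 30-array fit shares a residual variance per probe over all arrays, kidney rapamycin array 2 included, where ILMN_2827607 read 6.21 after kidney normalisation. In the separate brain and heart fits, its SE was 0.13 for rapamycin minus old and for old minus young. For rapamycin minus young it was 0.11 in both tissues. The brain-against-heart SE and p thus do not measure the spread of brain and heart arrays alone.

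Of the wider pathway, 53 further genes were listed and 48 had a probe. In kidney 28 were tested, and with 10 arrays 0 were called in any of the 3 comparisons, as for 0 of 32 in brain and 0 of 30 in heart. At an unadjusted p under 0.05 limma counted 1, 2 and 6 of the 32 in brain and 5, 1 and 5 of the 30 in heart for old minus young, rapamycin minus old and rapamycin minus young, beside the counts over all probes given above. The dioxygenases that start the pathway, Tdo2, Ido1 and Ido2, were not tested in kidney because too few arrays detected them. Ido1 was the only one tested elsewhere. In heart it differed by 0.89 ± 0.27 between old and young (limma adjusted p = 0.169) and by -0.80 ± 0.27 between rapamycin and old (limma adjusted p = 0.336). In brain the same comparisons gave 0.08 ± 0.10 and -0.35 ± 0.10 (limma adjusted p = 0.82 and 0.368).

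Among the 7 enzymes of the kynurenine side branches, 6 had negative and 1 a positive old-minus-young difference in kidney, with a median of -0.05 against -0.016 over all probes. The extremes were Aadat, an aminotransferase that forms kynurenic acid, at -0.84 ± 0.34, and Kyat3, another kynurenine aminotransferase, at 0.17 ± 0.62. In NAD synthesis, 2 of 6 were positive: Nampt, which recycles nicotinamide, differed by 0.59 ± 0.42 and the NAD kinase Nadk by -0.39 ± 0.43. In NAD use, 4 of 5 had differences that were not negative, led by the nicotinamide methyltransferase Nnmt at 0.88 ± 0.72, and Parp1 was the lowest at -0.04 ± 0.16.

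For tryptophan uptake and the serotonin branch 2 of 7 were positive. The amino acid transporter gene Slc7a5 differed by 0.63 ± 0.33 and Slc6a19, the apical neutral amino acid transporter of the tubule, by -0.39 ± 0.44. Of 12 listed receptors and targets of kynurenines 11 had a probe. Only 2 were tested in kidney, both positive. Cyp1b1, a target of the aryl hydrocarbon receptor, differed by 0.41 ± 0.56. The vitamin B6 phosphatase gene Pdxp was listed because kynureninase needs vitamin B6. With 9 arrays it was detected on 0 of 4 young, 1 of 2 old and 2 of 3 rapamycin arrays. It lay near background, so its difference of 0.32 ± 0.16 is not read. With 9 arrays 2 of the 28 were called higher in old than in young kidney, and 4 were called lower, beside 9.63% of all probes. These 6 were named after their values were seen: Parp2 (0.44 ± 0.11) and Slc7a5 (0.64 ± 0.13) were higher, and Aadat (-0.85 ± 0.18), Aldh8a1 (-0.66 ± 0.14), Kyat1 (-0.60 ± 0.13) and Nadk (-0.39 ± 0.10) were lower. Aadat, Aldh8a1 and Kyat1 belong to the side branches, where 3 of 7 genes were called with 9 arrays and 0 of 7 with 10. Between rapamycin and young controls 2 of the 28 were called higher with 9 arrays and 5 lower, beside 8.47% of all probes. Also named after their values were seen, Cyp1b1 (0.81 ± 0.14) and Slc7a5 (0.61 ± 0.11) were the higher ones, and Aadat (-0.83 ± 0.16), Aldh8a1 (-0.59 ± 0.13), Slc16a10 (-0.52 ± 0.12), Slc7a8 (-0.51 ± 0.11) and Nmnat3 (-0.46 ± 0.12) the lower ones. Nmnat3 was detected on 4 of 4 young but 1 of 3 rapamycin arrays, with a rapamycin mean of 4.82, near background. In rapamycin minus old limma called 0 of the 28 with 10 or with 9 arrays. An unadjusted limma p under 0.05 was found for 2 and 6 of the 28, beside 418 of 13805 and 1608 of 13651 probes.

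Macrophage and interferon markers were also higher in the kidneys in which Kynu was high. All 12 measured macrophage genes of 15 listed had positive old-minus-young differences in kidney, with a median of 1.19, of which 0 of 12 were called with 10 arrays and 10 of 12 with 9, beside 9.63% of all probes. In brain and heart, where Kynu was not detected, all 12 measured genes were positive as well, and 7 and 2 were called higher, beside 0.85% and 0.624% of all probes. Their kidney summed level was 1324 to 1685 in young controls, 4507 and 3055 in old controls 1 and 2 and 3172 to 6747 in rapamycin-treated mice. Lyz2, a macrophage lysozyme, differed by 2.21 ± 0.63 and the complement gene C1qb by 1.49 ± 0.33. Among the defining markers, Itgam was not detected on enough arrays, Cd68 and Csf1r had no probe, and Adgre1 was detected on 2 of 4 young and on every old and rapamycin array. The 8 measured interferon response genes of 10 listed were all positive too, with a median of 1.04 and sums of 1049 to 1702, 3899 and 1864, and 1872 to 3085. Ifit3 (1.20 ± 0.45) and Usp18 (1.20 ± 0.34) had the largest differences, and 0 of the 8 were called with 10 arrays and 6 with 9. In brain and heart the interferon sums of old controls also lay above those of all young controls. These sums were 1308 and 1318 against 692.1 to 772.2 in brain, and 4381 and 2254 against 1428 to 1881 in heart.

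In the 2 old controls the array with the higher Kynu, 8.70, also had the higher macrophage sum, 4507. Within the rapamycin group Kynu and the macrophage sum did not have the same order. The array with the highest Kynu, 8.57, had the lowest macrophage sum, 3172, and the array with the lowest Kynu, 6.55, had a sum of 4233. The highest macrophage sum, 6747, belonged to rapamycin array 2. Proximal tubule markers summed to 51930 to 54380 in young controls, 41140 and 50210 in old controls and 49850 to 56390 in rapamycin-treated mice, with 4 of 10 measured genes positive in old minus young. The organic anion transporter gene Slc22a8 differed by 0.98 ± 0.37 and Slc22a6 by -0.81 ± 0.19. Both old sums thus lay below all young sums, as did Haao and Afmid. Hepatocyte markers were carried by 3 of 6 genes, with Alb, Tat and Cps1 not tested. They summed to 1092 to 2471, 8878 and 4798, and 1983 to 5850. Among them Serpina1b differed by 2.13 ± 0.46. On old controls 1 and 2 and rapamycin arrays 1, 3 and 4 the hepatocyte sum had the same order as Kynu. From the highest Kynu down, 8.70, 8.57, 7.85, 7.24 and 6.55, these sums were 8878, 5850, 4798, 4255 and 3477. Rapamycin array 2, with Kynu at 7.86, had the lowest sum of its group, 1983. This order was picked out among several marker lists after their values were seen, and was not tested. Neutrophil markers, 4 of 6 measured, summed to 103.5 to 117.1 in young controls, 714.2 and 180.8 in old controls and 125.3 to 299 in rapamycin-treated mice. The 3 measured T cell markers summed to 77.28 to 105.7, 159.9 and 97.99, and 136.9 to 363.3. Markers of other kidney segments, 4 of 6 measured, summed to 16810 to 19380, 27480 and 28680, and 10730 to 23730. No adrenal marker was detected on enough kidney arrays to be tested. The part of these cell types in the pathway's differences was not tested.

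**Figure D5:**
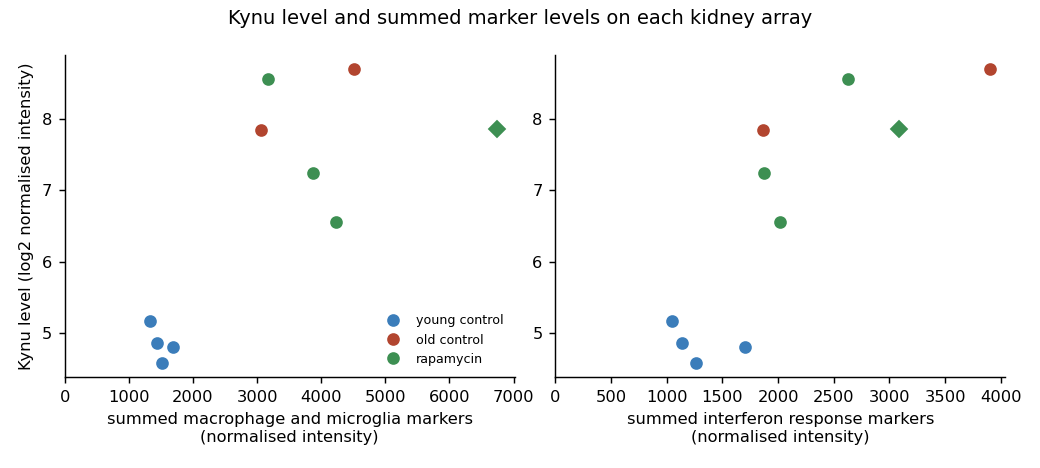
Kynu level (log2 normalised intensity, y axis) against the summed normalised intensity of 12 macrophage genes (left) and 8 interferon response genes (right) on each kidney array, coloured by group. The diamond is the array of rapamycin mouse 2. Young arrays lie at the lower left, arrays of 25-month mice at higher values of both, and within the rapamycin group the array with the highest Kynu has the lowest macrophage sum.

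Across the 10 kidney arrays, the genes whose log2 levels were most like those of Kynu, by Pearson correlation among 9662 genes, were Esam (0.98), Rpl37 (0.959), Hpd (0.959), Abcc3 (0.956) and Ppp1r1a (0.954). Over 9 arrays the leading 5 were Rps20 (0.988), Esam (0.98), Akr1c19 (0.979), Abcb1b (0.976) and Slc6a6 (0.975), so 1 gene, Esam, stood in both lists. Hpd encodes a dioxygenase of tyrosine breakdown, and Abcc3 and Abcb1b encode efflux transporters. Kynu levels fall into a low young group and a high 25-month group, so these coefficients mostly describe that split and carry no test. The other pathway genes were far from these values: Kmo had 0.297, Haao -0.431, Afmid ILMN_2827607 -0.453 and Qprt -0.608 over 10 arrays. Over 9 arrays the values were 0.15, -0.725, -0.573 and -0.579 in the same order.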

How the data were processed

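Total RNA of 3 tissues from 10 mice was hybridised to Illumina arrays. The authors deposited a non-normalised table of signal intensity per probe with a detection p-value, and a processed intensity matrix; GenomeStudio 2011.1 is named in the submitters' processing notes, and the steps behind the matrix are not given in the sources used here. Table columns were matched to samples through the deposited key.

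Signals were background-corrected with normexp from the detection p-values (offset 16), quantile normalised within tissue and put on a log2 scale with neqc of limma 3.58.1 in R 4.3.3. Probes detected (p under 0.05) on at least 2 arrays of a tissue were tested with lmFit and eBayes on 3 group means, with Benjamini-Hochberg adjustment over all probes tested. Differences between tissues used 30 arrays normalised together and 9 group means. Of 25697 probes 23978 carried 1 gene symbol and 1719 none.

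Members, gene lists and the naming rule were chosen with earlier results of these data known. Named were all member probes, the extremes of each pathway list in kidney old minus young, genes past a test, the 2 largest differences of a marker list, and the 5 genes most correlated with Kynu. A gene of a list was read on its brightest probe. Replicates are separate mice, and the number of arrays limits the precision. Replicate numbers did not pair arrays: deviations of same-numbered arrays correlated at -0.24 to 0.31 in kidney, with 1 of 8 over 0.1. The 3 tissues of a mouse are paired by its identifier, with a consensus correlation of 0.085. The test was checked on simulated data. Alternatives covered background correction, scaling, the authors' matrix, filters, moderation, weights, blocks and each mouse left out.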

Additional observations from a re-analysis of the deposited data

Results flagged for a closer look

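Dixon's criterion for a sample far from the others of its group was applied to 32 groups of pathway probes, and 6 had such a sample. Chance flags about 1 in 20 groups. On the kidney array of rapamycin mouse 2, Kmo stood at 8.02 on the log2 scale while the other 3 rapamycin arrays had 6.83 to 6.99. The deposited Kmo signal there, 177.3, was the lowest of the kidney arrays. Qprt on the same array was 8.18, against 8.52 to 8.56. Afmid was 5.86 there for ILMN_2600443, against 7.09 to 7.20, and 6.21 for ILMN_2827607, against 8.35 to 8.71. Young control 2 in kidney had 5.89 for Afmid ILMN_2742295, where the other young arrays had 6.30 to 6.35. In heart, rapamycin array 4 had 4.85 for Afmid ILMN_2702893, a probe near background, where the other 3 had 4.70.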

How the results depend on the processing

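Kynu kept its sign in kidney under every alternative run: old minus young ran from 1.73 without background correction to 4.10 in the authors' matrix, rapamycin minus young from 1.25, also without background correction, to 3.35, and rapamycin minus old from -1.14 to -0.29. The number of pathway probes called in kidney was less stable. In old minus young, 1 became 0 with median scaling, without background correction, with no detection filter and with the replicate block, 8 with array weights, and 9 when the 2 compared groups were fitted alone. In rapamycin minus young, 1 became 0 with median scaling, without background correction, with no detection filter and with the replicate block, and 6 with array weights. With each mouse left out the counts ran from 0 to 9 and from 0 to 1; the count in old minus young was 0 without young control 1, 2, 3 or 4, old control 1 or 2, or rapamycin mouse 1 or 4, and the 9 came without rapamycin mouse 2. Afmid was negative in old minus young in all 140 alternative values over its 7 probes (-1.22 to -0.21) and in all 140 of rapamycin minus young (-1.28 to -0.05), while rapamycin minus old was negative in 71 of 140 (-0.42 to 0.73). Pathway probes called in rapamycin minus old, in brain and in heart were 0 under every alternative run. Between brain and heart 1 in place of 2 probes was called without background correction and 3 with median scaling, and Haao, undetected in both, turned to -0.23 with median scaling. Between kidney and brain 10 in place of 11 probes, Kynu counted, were called without background correction. Kynu was not called in that comparison without young control 1, 2, 3 or 4. Over all kidney probes the calls ran from 0 to 1491 in old minus young, where 13 were called, from 0 to 3 in rapamycin minus old and from 2 to 2931 in rapamycin minus young. In brain they ran from 23 to 188, 0 to 21 and 62 to 440, and in heart from 5 to 326, 0 to 36 and 30 to 267, in the order old minus young, rapamycin minus old and rapamycin minus young. The cause of these shifts was not tested. With the mouse as a block in the 30-array fit, no pathway call between tissues changed. Leaving out the array of rapamycin mouse 2 from the 30-array fit was chosen after seeing the data. A block on the BeadChip slide was not run, because the files used here name no slide. Signals at background limit what can be said of Kynu in young kidney, brain and heart.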
